A study of Mus musculus with 17 samples.

Results

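The genes described here are 7 of the 19 genes for subunits of the GABA-A receptor in the mouse: Gabra2, Gabra3, Gabra4 and Gabra5 (alpha subunits), Gabrb1 and Gabrb2 (beta subunits) and Gabrd (the delta subunit). They were chosen by name, out of 38355 genes counted, and all 7 were found and passed the filter on low counts in both experiments. RNA came from hand-dissected hippocampus of wild type C57BL/6J mice that had received no treatment. The series holds 17 libraries of polyA RNA. In the single-end experiment 5 libraries of mice aged 3 months (3M) were set against 6 libraries of mice aged 24 months (24M), and in the paired-end experiment 3 libraries of 3M mice were set against 3 libraries of mice aged 29 months (29M). The mice were bought from a breeder, and the 29M group was bought aged and kept on. The aged groups were sequenced with different library types, so a step from 24M to 29M and a change of library type cannot be told apart. The labels do not say whether libraries of a group came from separate animals, so p-values measure the spread between these libraries.

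GABA-A receptors are chloride channels made of 5 subunits around a pore, and they open when GABA, the main inhibitory transmitter of the brain, binds. The alpha subunits set where a receptor sits and which drugs act on it. Receptors with the alpha5 subunit are abundant in the hippocampus and lie largely outside synapses, as do those that pair alpha4 with delta, which are typical of dentate granule cells and carry tonic inhibition. Receptors with alpha2 are found at synapses of pyramidal cells, and the beta subunits form the GABA binding site together with alpha.

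Most of the 7 genes lie in clusters of subunit genes (GRCm38). Gabra2 lies on chromosome 5 from 70957597 to 71095849 and Gabra4 from 71569749 to 71658308, both on the minus strand, and Gabrb1 follows on the plus strand from 71658113 to 72149037. Gabra4 and Gabrb1 start head to head and overlap by 196 bp, of which 46 bp are exon in both. Gabra5 lies on chromosome 7 from 57407672 to 57510059 on the minus strand. Gabrb2 lies on chromosome 11 from 42419757 to 42629028 and Gabrd on chromosome 4 from 155384980 to 155398112. Gabra3 lies on chromosome X from 72432681 to 72656848. None of the sources used here gives the strand setting of the counting, so reads from the 46 bp shared by Gabra4 and Gabrb1, and from 148 bp of exon that Gabra5 shares with Gm9962 on the other strand, may be counted for neither gene.

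The promoters of Gabra4, Gabrb1 and Gabra5 are shown because Gabra4 and Gabra5 were the 2 genes of the 7 that passed the test upward at 24M. Gabrb1, whose nearer start in RefSeq lies 387 bases from that of Gabra4, did not pass and is shown beside them. Each runs from 250 bases before the start to 50 bases after it (RefSeq, GRCm38.p6), 5′ to 3′ on the strand of the gene. Capitals mark the GC box, searched as GGGCGG on both strands. It is held by 35.7% of the 32851 promoters in the table. The windows are Gabra4 at chr5:71658259-71658558, Gabrb1 at chr5:71657671-71657970 and Gabra5 at chr7:57510010-57510309.
Gabra4: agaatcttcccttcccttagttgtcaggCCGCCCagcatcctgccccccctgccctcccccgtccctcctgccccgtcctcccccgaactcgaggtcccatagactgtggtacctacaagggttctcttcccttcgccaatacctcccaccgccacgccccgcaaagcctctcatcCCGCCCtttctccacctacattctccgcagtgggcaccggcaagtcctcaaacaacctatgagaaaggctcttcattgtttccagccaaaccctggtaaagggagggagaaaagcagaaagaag
Gabrb1: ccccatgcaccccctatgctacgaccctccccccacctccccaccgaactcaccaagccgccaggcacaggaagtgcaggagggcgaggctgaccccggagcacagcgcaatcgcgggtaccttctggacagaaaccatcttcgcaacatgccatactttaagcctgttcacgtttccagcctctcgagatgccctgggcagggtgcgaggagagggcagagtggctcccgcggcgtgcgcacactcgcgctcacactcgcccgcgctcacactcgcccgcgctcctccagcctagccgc
Gabra5: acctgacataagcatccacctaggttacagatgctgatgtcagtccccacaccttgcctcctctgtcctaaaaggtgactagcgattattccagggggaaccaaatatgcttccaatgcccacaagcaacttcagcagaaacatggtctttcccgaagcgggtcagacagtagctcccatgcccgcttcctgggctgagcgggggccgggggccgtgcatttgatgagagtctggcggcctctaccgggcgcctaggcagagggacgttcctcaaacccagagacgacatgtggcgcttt
The Gabra4 window held 2 GC boxes, and the other 2 windows shown held 0. Among windows not shown, that of Gabra2, which did not pass at 24M, also held 2, and 1 of Gabrb2 held 1. Promoters were found for 6 of the 7 genes, all but Gabrd. GC content was 58.7% for Gabra4, 66.0% for Gabrb1 and 56.7% for Gabra5, beside a median of 52.7% over all promoters. A further Gabrb1 window in RefSeq, at chr5:71699682-71699981, is not shown and had a GC content of 50.3%. None of the 3 windows shown held the TATA box searched as TATAAA, which 13.6% of all promoters held.

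Library depth and tissue bear on these values. Counts assigned to genes were 19144461 to 28438296 per library at 3M and 9213474 to 19756411 at 24M in the single-end experiment, and 10977976 to 15054972 at 3M and 10991389 to 13563541 at 29M in the paired-end experiment. The counts of replicates 1 and 4 of the 24M group differed by less than the sampling noise (0.406 of the variance expected from counting, against 1.23 for the next of 136 pairs of libraries), so their mean was counted as 1 sample and the 24M group has n = 5. Replicate 4 of the 3M single-end group stood apart. Its summed level of 7 striatal markers was 362 counts per 1000000 (CPM), against 62.0 to 74.8 in the other 3M single-end samples and 54.6 to 73.5 at 24M. Its summed level of 5 neocortical markers was 289 CPM, against 154 to 206 in the other 3M single-end samples and 134 to 153 at 24M. Since the members are also used outside the hippocampus, the single-end fold changes and share differences of the 7 genes are given with and without this library. Levels, their order, ratios and correlations are given with it only. Markers of hippocampal cells were present in all samples, with the 7 dentate granule cell markers together at 508 to 707 CPM.

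Gabra5 was the most abundant of the 7 mRNAs in every group. Levels between genes were compared in CPM per kilobase of exon. Length was the union of the exons of all transcripts, 6083 bp for Gabra4 and 3924 bp for Gabra3, while their longest transcripts have 4108 and 3662 bp. The order of genes close in level, among them Gabra3 and Gabra4, depends on the length used. In 3M single-end samples Gabra5 was at 70.1 ± 8.33 CPM per kb (SD, n = 5), followed by Gabrb2 at 25.6 ± 1.81, Gabra3 at 24.9 ± 2.18, Gabra4 at 19.8 ± 2.59, Gabrd at 11.8 ± 1.66, Gabra2 at 7.17 ± 0.441 and Gabrb1 at 4.53 ± 0.634. The ranges of Gabrb2 and Gabra3, and those of Gabra3 and Gabra4, overlapped, and the other neighbours in this order were apart. In 3M paired-end samples the order was the same and no neighbours overlapped, with Gabra5 at 70.7 ± 1.51 and Gabrb1 at 5.14 ± 0.394 CPM per kb (SD, n = 3). At 24M Gabra4 stood between Gabrb2 and Gabra3, with overlapping ranges, and Gabrd at 8.52 ± 0.706 CPM per kb overlapped Gabra2 at 7.37 ± 0.700 (SD, n = 5). At 29M the order was that of 3M.

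**Figure D1:**
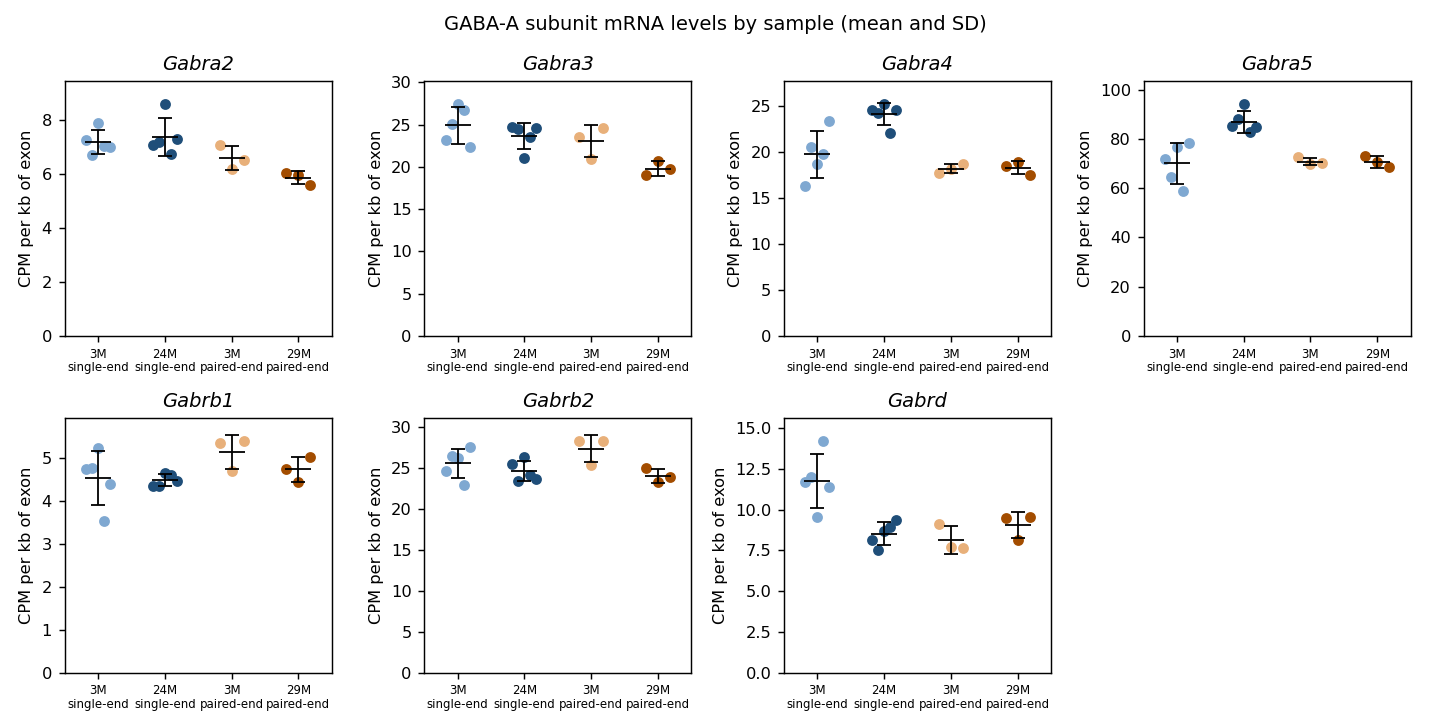
Level of each of the 7 subunit mRNAs in CPM per kilobase of exon (vertical axes, from 0) in each sample (points), with mean and SD (black lines), for 3M and 24M single-end samples (n = 5 each) and 3M and 29M paired-end samples (n = 3 each). Gabrd in 3M single-end samples lies above the other 3 groups, and Gabra5 at 24M lies above its 3M samples.

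At 24M, Gabra4 and Gabra5 were higher and Gabrd was lower than at 3M, each by less than the fold threshold, and the other 4 genes did not pass the test. A gene was called when its adjusted p was at most 0.05 and its absolute log2(fold-change) at least 0.5, the thresholds of the study. By both, 0 of the 7 genes were called, where 1.98% of the 15683 genes tested were called. By adjusted p alone (quasi-likelihood F test of edgeR, adjusted over all genes tested by the Benjamini-Hochberg method) 3 of the 7 passed, where 5.58% of all genes passed, 3.21% upward and 2.37% downward. DESeq2 also gave 0 by both thresholds and 3 by adjusted p alone, where it passed 2.35% and 10.2% of all genes, and 3 of the 7 had an unadjusted p under 0.05, where 26.1% of all genes did. With 24M replicates 1 and 4 left out 0 of the 7 passed, at adjusted p of 0.0666 for Gabra5, 0.102 for Gabra4 and 0.0533 for Gabrd, with changes of 0.32, 0.28 and -0.45. The median log2(fold-change) was -0.02 over the 7 genes and -0.0032 over all genes tested.

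Gabra5, the alpha subunit of extrasynaptic receptors in pyramidal cells, was at 214, 193, 228, 174 and 234 CPM in 3M replicates 1 to 5. At 24M it was at 253 CPM in the mean of replicates 1 and 4 and at 262, 280, 246 and 252 CPM in replicates 2, 3, 5 and 6. All 24M samples lay above all 3M samples, as they did for 3.15% of all genes tested, while 6.57% of genes had groups that did not overlap. The log2(fold-change) was 0.31 (SE 0.07, 1.24-fold, adjusted p = 0.0321, edgeR), and without 3M replicate 4, the lowest sample, it was 0.25 with an adjusted p of 0.0484. With offsets for GC content and gene length the change was 0.27 (adjusted p = 0.0562). Leaving out any 1 of 5 libraries took the adjusted p above 0.05, among them 24M replicate 2 (0.31, adjusted p = 0.0846).

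Gabra4, the alpha subunit that joins delta in dentate granule cells, was at 99.5, 125, 114, 120 and 142 CPM in the 3M samples. At 24M it was at 149 CPM in the mean of replicates 1 and 4 and at 148, 153, 134 and 150 CPM in the others. The groups overlapped in 1 sample of each, since 3M replicate 5 lay above 24M replicate 5. The log2(fold-change) was 0.29 (SE 0.08, 1.22-fold, adjusted p = 0.0482, edgeR). Its adjusted p stood at the edge of the threshold: leaving out any 1 of 8 libraries took it above 0.05, among them 3M replicate 4 (0.29, adjusted p = 0.0827). The offsets for GC content and length lowered the change to 0.16 (adjusted p = 0.0676).

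Gabrd, the delta subunit of receptors that carry tonic inhibition, was at 33.6, 34.5, 27.5, 40.9 and 32.7 CPM in the 3M single-end samples. At 24M it was at 23.3 CPM in the mean of replicates 1 and 4 and at 21.7, 24.9, 25.7 and 26.8 CPM in the others. All 24M samples lay below all 3M samples, as they did for 3.42% of all genes, although the lowest 3M sample and the highest 24M sample were close. The log2(fold-change) was -0.46 (SE 0.10, 0.725-fold, adjusted p = 0.0184, edgeR). It was -0.39 (adjusted p = 0.0321) without 3M replicate 4, the sample with the highest Gabrd and the striatal markers, and -0.40 (adjusted p = 0.0282) with offsets for GC content and length. Without 24M replicate 2 the change was -0.42 (adjusted p = 0.0599), and without 3M replicate 3 the change was -0.53, past the fold threshold. Gabrd had the fewest counts of the 7, 244 to 803 per library, so counting error alone was 3.53% to 6.40% of its value.

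The level of Gabrd also differed between the 3M groups. It was 33.8 ± 4.79 CPM (SD, n = 5) in 3M single-end samples and 23.4 ± 2.42 CPM (SD, n = 3) in 3M paired-end samples, while it was 24.5 ± 2.03 at 24M (SD, n = 5) and 26.1 ± 2.25 at 29M (SD, n = 3). By these values the 3M single-end group was highest, and the 24M level lay beside that of the 3M and 29M paired-end samples. Levels of different library types compare only loosely, since each experiment was scaled on its own. Reads that did not align uniquely also differed, at 22.85% to 26.1% in 3M single-end and 11.39% to 12.4% in 3M paired-end libraries. Slc12a5, described further on, was likewise highest in the 3M single-end group. The part of library type, tissue or age in this was not tested.

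Several marker lists moved with the single-end comparison. At 24M the summed neocortical markers lay below 3M in all samples, and 5 of 5 had a log2(fold-change) below 0, with Cux2 at -0.53 (adjusted p = 0.0305) and Lamp5 at -0.65 (adjusted p = 0.0487). Without 3M replicate 4 the neocortical sum stayed below 3M in all samples, with 1 of the 5 past the test. All 7 striatal markers were below 0, with a median of -0.83 and 0 past the test, but 3M replicate 4 carried this: without it 4 were below and 3 above 0, with a median of -0.25, and the summed levels overlapped. Of 5 CA1 pyramidal cell markers reported here 4 were below 0, with 0 past the test, and their summed levels of 740.5 to 934 CPM at 3M and 745 to 792 at 24M overlapped. Of 4 endothelial markers 3 were below and 1 above 0, with a median of -0.06. Their summed levels of 119 to 161 CPM at 3M and 130 to 146 at 24M overlapped. Of these markers 1 was called lower, Cldn5 at -0.60 (adjusted p = 0.0242, edgeR). The 4 blood markers were above 0, with a median of 1.32 and 0 past the test, and 4 of 5 sex-linked genes were above 0, with 0 past it. Summed microglial markers were at 268 to 299.97 CPM at 3M and 326 to 352 at 24M, and astrocyte markers at 1702 to 1934 and 2125 to 2247 CPM. Of the 7 dentate granule cell markers 6 were above 0 and 0 passed, with summed levels of 508 to 663 CPM at 3M and 597 to 707 at 24M, while 8 general neuronal markers were 4 above and 4 below 0. The part of these cell and tissue markers in the changes of Gabra4, Gabra5 and Gabrd was not tested. In bulk tissue, fewer cells of a type and less RNA per cell cannot be told apart.

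The remaining 4 genes did not pass the test at 24M. Gabra2 was at 54.8 ± 3.37 CPM at 3M and 56.3 ± 5.35 at 24M (SD, n = 5 each), and its log2(fold-change) was 0.04 and a 95% interval from -0.11 to 0.19. With the GC and length offsets its value turned to -0.21 (adjusted p = 0.178). Gabra3, a subunit prominent in monoamine neurons, was at 97.8 ± 8.54 and 92.8 ± 6.01 CPM, with an interval from -0.22 to 0.06. Gabrb1 was at 62.7 ± 8.77 and 62.1 ± 2.01 CPM, with an interval from -0.20 to 0.17. Gabrb2 was at 163 ± 11.5 and 157 ± 8.13 CPM, with an interval from -0.17 to 0.07. These intervals leave out changes as large as the threshold of 0.5 either way. Without 3M replicate 4 the values were 0.03 for Gabra2, -0.05 for Gabra3, -0.09 for Gabrb1 and -0.09 for Gabrb2, and 0 of these 4 passed.

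**Figure D2:**
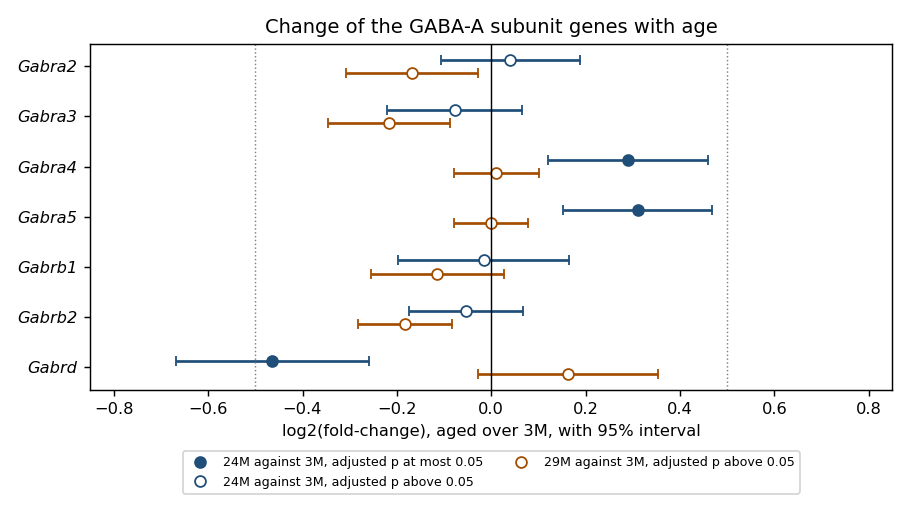
The log2(fold-change) of each subunit gene (horizontal axis, aged over 3M) with its 95% interval, at 24M (blue) and 29M (orange), where filled points have an adjusted p of at most 0.05 and dotted lines mark the threshold of 0.5. Gabra4 and Gabra5 lie above 0 and Gabrd below 0 at 24M, and no gene has a filled point at 29M.

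At 29M, 0 of the 7 genes passed the adjusted p or both thresholds, where 2.99% (2.32% upward and 0.662% downward) and 1.45% of the 15097 genes tested did. DESeq2 passed 0 as well, and 3 of 7 had an unadjusted p under 0.05, all of them below 0, where 17.3% of all genes were under 0.05. The median log2(fold-change) was -0.11 over the 7 and -0.0021 over all genes tested, and 5 of 7 were below 0. Gabra2, Gabra3 and Gabrb2 had all 29M samples below all 3M samples, as did 10.5% of all genes tested (11.9% had all 29M samples above), while 22.4% of genes had groups that did not overlap.

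Gabrb2, a beta subunit widespread in the brain, was at 179.94, 162 and 179.98 CPM at 3M and 159, 148 and 152 CPM at 29M. Its log2(fold-change) was -0.18 (SE 0.05, adjusted p = 0.0508, edgeR), just short of the threshold. It passed without 3M replicate 2, its lowest 3M sample (-0.23, adjusted p = 0.0144), and with GC and length offsets (adjusted p = 0.0395). Gabra3 was at 92.3, 82.2 and 96.7 CPM at 3M and 74.5, 81.4 and 77.3 CPM at 29M, and its log2(fold-change) was -0.22 (adjusted p = 0.0754), and without 3M replicate 2 it was -0.28 (adjusted p = 0.0244). Gabra2 was at 54.0, 47.2 and 49.6 CPM at 3M and 46.1, 45.5 and 42.5 CPM at 29M, and its log2(fold-change) was -0.17 (adjusted p = 0.203). In all 3 genes replicate 2 was the lowest of the 3M samples and came closest to the 29M samples. Marker lists moved here too. Summed interneuron markers were at 455 to 465.6 CPM at 3M and 421 to 446 at 29M, without overlap. Of these 8 markers 4 were above and 4 below 0, with a median of -0.01 and 1 past the test, downward. Summed endothelial markers were at 122 to 131 and 101 to 121 CPM, without overlap, and 4 of 4 were below 0. Of the CA1 markers 3 of 5 and of the general neuronal markers 6 of 8 were below 0, with Wfs1 and Stmn2 past the test. The 4 blood markers were above 0, with a median of 0.755 and 1 called higher, and their summed levels overlapped. Of 5 thalamic markers 4 were below 0, with 1 past the test. Of 7 striatal markers 5 were below and 2 above 0, with 1 called lower. Summed microglial markers, at 251 to 256 and 322 to 336 CPM, and astrocyte markers, at 1642 to 1693 and 2024 to 2062 CPM, lay above 3M in all 29M samples. The part of these markers in the values of the 3 genes was not tested.

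The genes that passed at 24M did not do so at 29M. Gabra5 was at 216, 207 and 208 CPM at 3M and 218, 210.0 and 203 CPM at 29M, a log2(fold-change) of -0.0001 with a 95% interval from -0.08 to 0.08. Gabra4 was at 108, 110.4 and 114 CPM at 3M and 112, 115 and 107 CPM at 29M, a log2(fold-change) of 0.01 with an interval from -0.08 to 0.10. Gabrd was at 26.2, 22.1 and 21.9 CPM at 3M and 27.3, 23.5 and 27.4 CPM at 29M, a log2(fold-change) of 0.16 with an interval from -0.03 to 0.35. Gabrb1 was at 71.2 ± 5.45 CPM at 3M and 65.5 ± 3.95 at 29M (SD, n = 3 each), with an interval from -0.26 to 0.03.

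The difference between the ages was itself tested, as the log2(fold-change) at 29M minus that at 24M, each against its own 3M group. By adjusted p 0 of the 7 passed, as did 0.0% of the 16055 genes tested. DESeq2 passed 0 of the 7, and 3 had an unadjusted p under 0.05, where 10.4% of all genes did. Gabrd had a difference of 0.62 (SE 0.15, unadjusted p = 0.000761, adjusted p = 0.392, edgeR), Gabra5 of -0.31 (SE 0.11, adjusted p = 0.392) and Gabra4 of -0.28 (SE 0.11, adjusted p = 0.406). Without 3M replicate 4 these were 0.54, -0.26 and -0.28, with 0 past the test. So the changes at 24M and 29M were not shown to differ after adjustment.

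Shares show how the mix of the 7 mRNAs stood in each sample. The share of a gene is its CPM per kb as a percentage of the sum over the 7, so a higher share of 1 gene lowers the others. At 24M the share of Gabra5 was higher and those of Gabrb2 and Gabrd were lower than at 3M, without overlap of samples. Gabra5 made up 45.0%, 40.4%, 44.7%, 38.4% and 45.0% in 3M replicates 1 to 5 and 47.4% to 49.9% at 24M, a mean of 42.7% ± 3.09 against 48.4% ± 1.101 (SD, n = 5 each). Gabrd made up 5.57% to 9.31% at 3M and 4.21% to 5.23% at 24M, with means of 7.24% ± 1.38 and 4.75% ± 0.442. Gabrb2 made up 14.998% to 16.5% at 3M and 13.1% to 14.2% at 24M, with means of 15.6% ± 0.592 and 13.7% ± 0.507. Each of these had p = 0.00794 by an exact two-sided permutation test, unadjusted, which is the smallest p that 5 against 5 samples can give, and 14 shares were tested. In all 14 other settings they kept p of at most 0.0159, the smallest that 4 against 5 samples can give, and their differences ranged from 4.30 to 6.24 percentage points for Gabra5, -2.43 to -1.66 for Gabrb2 and -2.91 to -1.53 for Gabrd. Among these settings was leaving out 3M replicate 4 (differences of 4.59 percentage points for Gabra5, -2.05 for Gabrb2 and -1.97 for Gabrd, exact permutation p = 0.0159 for each). Shares were not tested with 24M replicates 1 and 4 both left out or with offsets for GC content and length.

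The shares of the other 4 genes overlapped at 24M. Gabra4 was at 12.1% ± 1.40 and 13.4% ± 0.397 (exact permutation p = 0.0635, n = 5 each), and Gabra3 at 15.3% ± 1.73 and 13.2% ± 1.13 (exact permutation p = 0.0794). Gabra2 was at 4.38% ± 0.271 and 4.09% ± 0.259 (exact permutation p = 0.0873), and Gabrb1 at 2.76% ± 0.328 and 2.50% ± 0.102 (exact permutation p = 0.135). The Gabra4 share passed with the longest transcript (a difference of 1.69 percentage points, exact permutation p = 0.0317) and without division by length (2.18, p = 0.0159). It also passed with 24M replicates 1 and 4 kept apart (1.42, exact permutation p = 0.0433). On leaving out single libraries it passed in 2 of 11 cases, but not without 24M replicate 1 (exact permutation p = 0.0794) or 24M replicate 4 (0.0635). Without 3M replicate 4 the Gabrb1 share passed, at -0.38 points (exact permutation p = 0.0317), and those of Gabra4 at 1.59, Gabra3 at -1.54 and Gabra2 at -0.24 points did not (0.0794, 0.159 and 0.159).

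At 29M the exact test of 3 against 3 samples cannot go below p = 0.1, so shares are given as values. Gabra5 made up 43.5% to 45.6% at 3M and 45.7% to 47.0% at 29M, Gabrb2 16.6% to 17.6% and 15.3% to 16.03%, Gabra3 13.7% to 15.3% and 12.2% to 13.6%, and Gabra2 4.02% to 4.32% and 3.72% to 3.91%, each without overlap (p = 0.1, exact permutation). Gabrd made up 4.73% to 5.57% and 5.36% to 6.37%, with overlap. The mean share of Gabra5 was thus higher and that of Gabrb2 lower in both aged groups than in their own 3M groups, while that of Gabrd was lower at 24M and higher at 29M. The levels behind these shares were not alike. Mean Gabra5 was 209 CPM at 3M and 259 at 24M, but 210 at both 3M and 29M in the paired-end groups. Mean Gabrb2 was 163 and 157 CPM in the single-end groups, and 174 and 153 CPM in the paired-end groups.

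**Figure D3:**
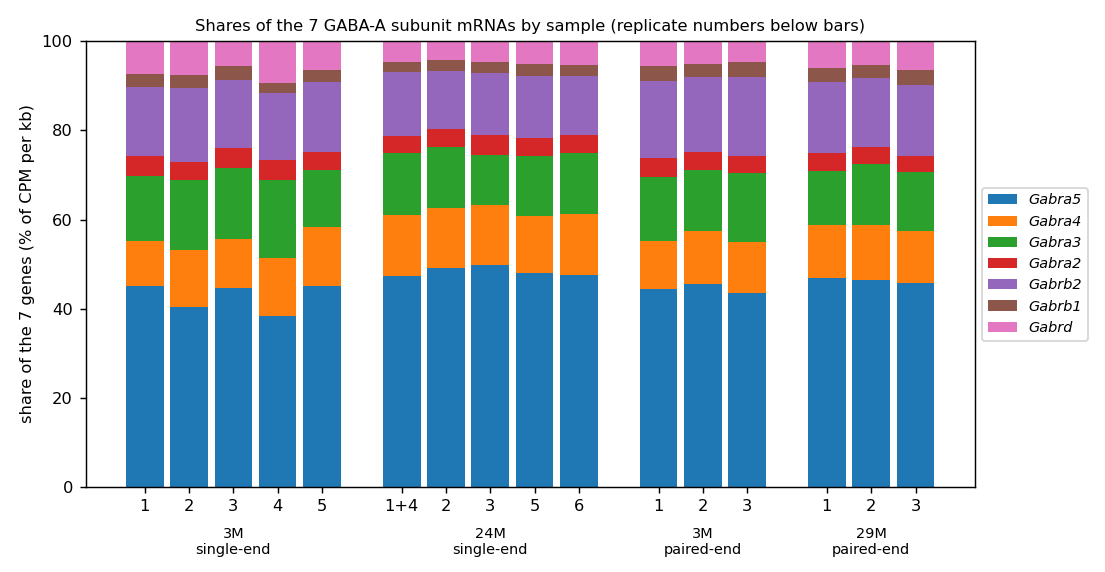
Share of each of the 7 subunit mRNAs (stacked, in percent of their summed CPM per kb, vertical axis from 0 to 100) in each sample, grouped by age and library type with replicate numbers under the bars, where 1+4 is the mean of 24M replicates 1 and 4. Gabra5 is the largest share in all samples, at 38.4% to 45.0% in 3M and 47.4% to 49.9% in 24M single-end samples.

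Within a sample the ratio of Gabra5 to Gabrd per kb, a pair chosen after its values were seen, was 4.13 to 8.03 at 3M and 9.08 to 11.7 at 24M, and 7.96 to 9.20 at 3M and 7.17 to 8.65 at 29M. The ratio of 4.13 was that of 3M single-end replicate 4, which had the lowest Gabra5 and the highest Gabrd of its group.

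Of 9 other GABA-A subunit genes reported here, 5 were tested at 24M and 3 at 29M, and 0 passed at either age by edgeR or by DESeq2. By edgeR 5.58% of all genes passed at 24M and 2.99% at 29M. At 24M 3 were above and 2 below 0, the median was 0.05 on the log2 scale, and 1 had an unadjusted p under 0.05, as did 26.1% of all genes. At 29M 3 of 3 were below 0, with a median of -0.21, and 2 had an unadjusted p under 0.05, as did 17.3% of all genes.

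Of 7 genes of GABA synthesis and transport, 1 passed at 24M, downward, and 0 at 29M, where 5.58% and 2.99% of all genes passed. Slc32a1, the vesicular GABA transporter, was at 77.5 to 99.9 CPM at 3M and 54.0 to 78.8 CPM at 24M, and its log2(fold-change) was -0.38 (edgeR, adjusted p = 0.0367), which became -0.33 (adjusted p = 0.0757) without 3M replicate 4. Its groups overlapped. Gad1, which makes GABA, was at 0.03 (adjusted p = 0.634) at 24M and -0.04 (adjusted p = 0.694) at 29M. Abat, which breaks GABA down, was at -0.11 at both ages (adjusted p = 0.177 and 0.155).

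Of 4 chloride transporters and channels, 1 passed at 24M, downward, and 0 at 29M, where 5.58% and 2.99% of all genes passed. Slc12a5, the neuronal potassium chloride carrier KCC2 that keeps GABA inhibitory, was at 609 to 723 CPM at 3M and 559 to 605 CPM at 24M, without overlap. Its log2(fold-change) was -0.22 (adjusted p = 0.0294, edgeR), and it was -0.11 (adjusted p = 0.0682) with GC and length offsets and -0.22 (adjusted p = 0.0526) without 3M replicate 4. In the paired-end experiment it was at 586 ± 18.8 CPM at 3M and 584 ± 20.2 at 29M (SD, n = 3 each). Slc12a2, the chloride importer NKCC1, was at 0.33 (adjusted p = 0.263) and 0.10 (adjusted p = 0.631), and Clcn3, an intracellular chloride transporter, at 0.12 (adjusted p = 0.218) and -0.05 (adjusted p = 0.414).

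Of 16 genes of receptor anchoring and trafficking, 1 passed at 24M, upward, and 0 at 29M, where 5.58% and 2.99% of all genes passed. Trak2, a motor adaptor for transport along microtubules, was at 237 to 280 CPM at 3M and 286 to 318 CPM at 24M, and its log2(fold-change) was 0.20 (edgeR, adjusted p = 0.0482). All 24M samples lay above all 3M samples, but leaving out any 1 of 8 libraries took the adjusted p above 0.05. Gabarap was at 0.0035 (adjusted p = 0.974) and -0.02 (adjusted p = 0.849), and Gabarapl1 at -0.02 (adjusted p = 0.801) and -0.05 (adjusted p = 0.540). Of 5 GABA-B receptor genes 4 were found and tested and 0 passed at either age by edgeR, with 2 of 4 under an unadjusted p of 0.05 at 24M and 1 of 4 at 29M (26.1% and 17.3% of all genes). DESeq2 passed Gabbr1 at 24M (adjusted p = 0.036) and 0 at 29M. Gabbr1 was at -0.11 (adjusted p = 0.106) and -0.09 (adjusted p = 0.3001), Gabbr2 at -0.10 (adjusted p = 0.210) and -0.11 (adjusted p = 0.255), and Kctd16, an auxiliary subunit, at -0.26 (adjusted p = 0.123) and -0.15 (adjusted p = 0.425). In these 5 lists 0 genes were called by both thresholds at either age, where 1.98% of all genes were at 24M and 1.45% at 29M.

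**Figure D4:**
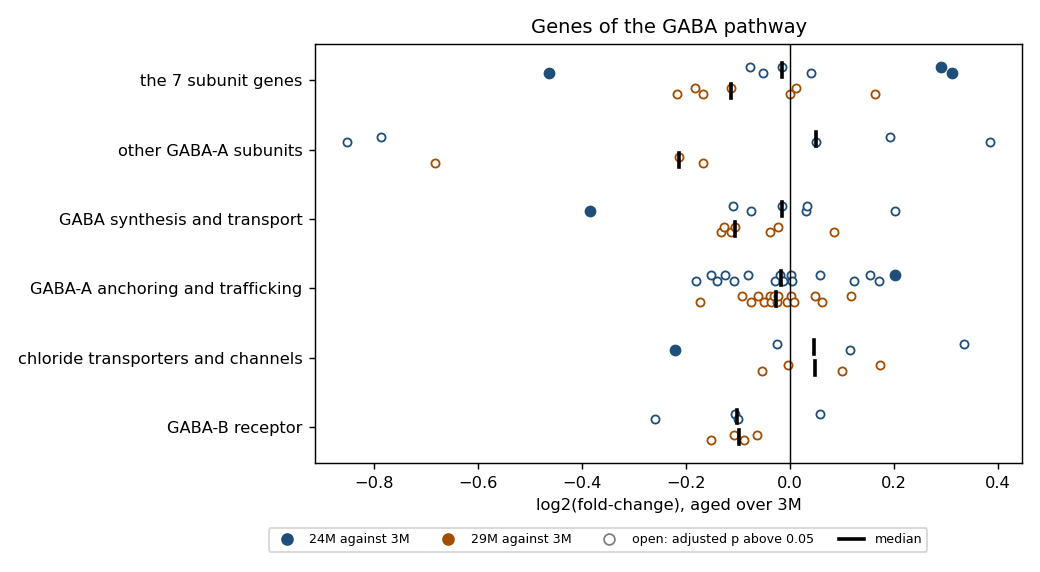
The log2(fold-change) (horizontal axis, aged over 3M) of each tested gene in the 7 subunit genes and 5 lists of the GABA pathway, at 24M (blue) and 29M (orange), with filled points for an adjusted p of at most 0.05 and black bars for medians. The other subunits have a median of 0.05 at 24M and -0.21 at 29M.

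The genes whose levels followed each subunit most closely were taken from 11489 genes with at least 5 CPM in every group, by Pearson's r of deviations from the group mean over 16 samples. These are the highest of many values and share libraries and depth, so they describe these samples only. The samples include 3M single-end replicate 4, which had the lowest Gabra5, Gabrb1 and Gabrb2 and the highest Gabrd of its group. Values of r without that library are not given. Gabra4 was followed by Exoc5 (r = 0.976), Zfp942 and Col4a3bp, and Gabrb1 by Dlg5 (r = 0.951), Bsn and Ptpre. Gabrb2 was followed by Scn2a (r = 0.938) and Lnpep, and Gabra5 by Dab1 (r = 0.915), St6galnac5 and Fkbp1b. Gabrd was followed by Akt2 (r = 0.906), Gm14204 and Map3k5, Gabra3 by Cct2 (r = 0.896), Ppa1 and Cdh4, and Gabra2 by Npepps (r = 0.858), Spred3 and Anks1b. Among the 7 themselves r was highest for Gabra5 with Gabrb2 (0.649) and lowest for Gabra5 with Gabrd (-0.565), and Gabra4 and Gabrd, which can share a receptor, had an r of -0.0537. The head-to-head neighbours Gabra4 and Gabrb1 had an r of -0.270.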

How the data were processed

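RNA of mouse hippocampus was sequenced in 17 libraries. The authors aligned reads with STAR 2.3.0 to GRCm38.p2 and deposited raw HTSeq counts per gene, without normalization. The sources used here do not give the annotation or strand setting. The quasi-likelihood test of edgeR 4.0.16 (R 4.3.3) was run with TMM factors and the default filter, for 24M and for 29M against the 3M group of the same library type, with Benjamini-Hochberg adjustment over all genes tested. DESeq2 1.42.0 was an alternative. Replicates 1 and 4 of the 24M group entered as their rounded mean. Names, exon lengths and GC content came from GENCODE M21. Shares were tested with SciPy 1.17.1. Genes were named as follows: the 7 subunit genes, listed pathway genes called at either age, up to 3 more per list by highest level per kb, and the 3 closest genes of each subunit. Slc32a1 and Trak2 were chosen after their values were seen. The 7 genes and the lists were chosen with earlier results of these data known. The results of some genes are not reported here, and counts over lists leave them out. The fits were tested on simulated data.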

Additional observations from a re-analysis of the deposited data

Results flagged for a closer look

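Of 52 groups of 5 samples examined, 3 had a sample far from the others by the gap to its neighbour over the range of the group, where chance alone gives about 2.6. In the 24M group replicate 3 had the lowest share of Gabra3, 11.2% against 13.6% (ratio 0.932), and the highest share of Gabra2, 4.54% against 4.08% (ratio 0.721). Replicate 5 of that group had the highest share of Gabrb1, 2.67% against 2.49% (ratio 0.715).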

How the results depend on the processing

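The number of the 7 genes past the adjusted p at 24M was 3 with DESeq2, 1 with offsets for GC content and length, 0 with 24M replicates 1 and 4 left out, and 0 with the replicate block, with or without those offsets. It was 0 to 3 on leaving out single libraries, and the 0 came without 24M replicate 2. By both thresholds it was 0 to 1 on leaving out single libraries, and 3 with no fold change threshold. At 29M it was 1 with DESeq2 size factors, 2 with no filter on low counts, 1 with the offsets, 1 with the replicate block and 1 with both, and 0 to 2 on leaving out single libraries (2 without 3M replicate 2). No member passed both thresholds at 29M, nor the test between ages, in any setting run. The number of shares with p of at most 0.05 at 24M was 3, and it was 4 with the longest transcript, without division by length and with replicates 1 and 4 kept apart, each time with Gabra4 added. It was 3 to 6 on leaving out single libraries, 6 without 3M replicate 5. The labels do not say whether replicate numbers pair the samples. Deviations of same-numbered samples correlated at -0.183 to 0.0442 at 24M and -0.0683 to 0.0961 at 29M. Those of differently numbered samples correlated at -0.226 to 0.196 and -0.162 to 0.193. These correlations show no pairing by number but cannot exclude a shared batch.

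Directions turned near 0 in several genes, and the cause was not tested. With GC and length offsets at 24M, Gabra2 was -0.21, Gabarapl1 0.0226 and Clcn3 -0.0212, and with the replicate block added Gabra2 was -0.22 and Gabarapl1 0.0437. With the replicate block alone Gabarapl1 was 0.00896, and 0.00275 with the pair kept apart. Gabarap was -0.00347 with no filter and -0.0217 with the pair left out. At 29M, Gabra5 was 0.0071 with offsets and 0.00683 with the replicate block added, and Trak2 was -0.00139 in 1 fit of all groups, -0.00257 with offsets and -0.00102 with the replicate block added. The difference between ages was 0.0567 for Gabra2 and 0.0772 for Gabrb1 with offsets. Leaving out single libraries gave -0.0303 to 0.0775 for Gabra2, -0.0925 to 0.0427 for Gabrb1 and -0.00905 to 0.022 for Gabarap at 24M. At 29M it gave -0.0137 to 0.0415 for Gabra4, -0.0259 to 0.0236 for Gabra5, -0.065 to 0.0234 for Gabarap, -0.01997 to 0.0372 for Trak2, -0.0329 to 0.0173 for Slc12a5 and -0.0331 to 0.174 for Slc12a2. Depth limits Gabrd most, and intervals of counting error cover counting only.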
